A study of Mus musculus with 2 samples.

Results

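Tubulins are the subunits of microtubules, and 10 of their genes were followed here in liver RNA of 2 groups of mice. The members were taken by gene symbol from the table of expression values: the 5 alpha tubulin genes *Tuba1a*, *Tuba1b*, *Tuba1c*, *Tuba4a* and *Tuba8*, and the 5 beta tubulin genes *Tubb2a*, *Tubb2b*, *Tubb4b*, *Tubb5* and *Tubb6*. They are 10 of the 35275 genes of the table, and all 10 were found. S1a/Ctrl mice (male, genotype Alb-Cre+/-;Rosa rtTA+/-;S1a+/-) carry a truncated human SREBP1a under the rat PEPCK promoter, which makes the liver fatty. The study backcrossed lines of this cross to the FVB strain, and states no strain for the SREBP1a line. S1a/ETP mice carry the same alleles together with TRE-ETP+/-, so that doxycycline switches on endotrophin, a fragment of the collagen VI alpha 3 chain, in the albumin-expressing cells in which Cre released rtTA. Both groups therefore shared Cre, rtTA, SREBP1a and doxycycline, which was fed at 200 mg/kg for 10 months, and the mice were labeled as 12 months old. Each group is 1 library, made from pooled RNA of 3 mice, and whether nodule tissue entered a pool is not stated.

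Microtubules are polymers of a dimer of 1 alpha and 1 beta tubulin chain. In hepatocytes they carry secretory vesicles and lipoprotein particles to the cell surface and position organelles, and in dividing cells they form the mitotic spindle. The isotypes are encoded by separate genes, have nearly the same body, and differ mainly in an acidic carboxy-terminal tail to which motors, microtubule-associated proteins and modifying enzymes bind. Cells also adjust tubulin mRNA to need, since unassembled tubulin leads to the decay of tubulin mRNA during translation.

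The coding ends of 3 alpha members are shown because they show whether a final tyrosine is encoded, the residue of the tyrosination cycle. In that cycle vasohibin removes the final tyrosine of alpha tubulin and tubulin tyrosine ligase restores it. The last 60 coding bases, 5′ to 3′ with the stop codon at the end, are given from the GENCODE vM21 transcripts (GRCm38), and capitals mark the codon before the stop:
Tuba1c: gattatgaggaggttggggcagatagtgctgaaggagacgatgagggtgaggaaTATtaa
Tuba4a: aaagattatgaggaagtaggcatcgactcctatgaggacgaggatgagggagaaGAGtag
Tuba8: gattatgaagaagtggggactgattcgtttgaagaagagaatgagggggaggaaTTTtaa
*Tuba1c* ends in a tyrosine codon, *Tuba4a* in a glutamate codon and *Tuba8* in a phenylalanine codon. The *Tuba1* genes together made up 61.6% of the summed alpha FPKM of the S1a/Ctrl pool and 63.3% of that of the S1a/ETP pool.

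The coding ends of *Tubb2a* and *Tubb2b* are shown because these beta tubulin genes are neighboring near-copies whose levels in the 2 pools were far apart. The last 120 coding bases are given in the same way, and capitals mark bases that are not the same in the other gene:
Tubb2a: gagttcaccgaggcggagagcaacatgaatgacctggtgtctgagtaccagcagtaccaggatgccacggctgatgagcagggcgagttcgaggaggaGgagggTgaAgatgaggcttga
Tubb2b: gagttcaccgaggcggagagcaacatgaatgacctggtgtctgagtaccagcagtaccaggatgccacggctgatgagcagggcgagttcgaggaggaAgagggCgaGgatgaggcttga
Of 1338 aligned coding bases 47 differed between the genes, 3 of them in the last 120 bases, and the transcripts run on for 194 bases after the stop in *Tubb2a* and 723 in *Tubb2b*.

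Transcripts of several members share long stretches, which bears on how reads can be assigned to them. *Tuba1a* and *Tuba1b* were 98.3% identical over their coding bases, *Tuba1b* and *Tuba1c* 97.9%, and *Tubb2a* and *Tubb2b* 96.5%, whereas *Tubb2a* and *Tubb5* were 84.6% identical and *Tubb2a* and *Tubb4b* 83.6%. Of the windows of 100 bases along the transcript, 73.0% in *Tuba1b*, 65.8% in *Tuba1a* and 53.4% in *Tuba1c* also occurred in a transcript of another gene. The share was 46.7% for *Tuba4a*, in each case in *Stk16*, which overlaps it on the other strand. It was 36.9% for *Tubb2a*, 30.6% for *Tubb4b*, 27.7% for *Tubb2b* and 12.5% for *Tuba8*. *Tubb5* and *Tubb6* shared no such window. The levels of the *Tuba1* genes and of the *Tubb2* genes are therefore given below also as sums. How shared reads were assigned is not stated, so the separate values of *Tuba1a*, *Tuba1b* and *Tuba1c*, and of *Tubb2a* and *Tubb2b*, with the differences and shares drawn from them, are uncertain beyond their counting intervals.

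All values are FPKM, in which the reads of a gene are scaled to its length and to the depth of its library, and can be compared between genes since they are scaled to length. They rested on a depth of 19245078 reads (S1a/Ctrl) and 14538808 reads (S1a/ETP), and mitochondrial genes took 4.69% and 4.68% of the reads. The log2 ratio sets the S1a/ETP pool over the S1a/Ctrl pool after 0.1 FPKM was added to each value, and its square brackets hold the Clopper-Pearson (exact binomial) 95% bounds that follow from the read counts. With 1 library per group there is no estimate of the spread between mice, no p-value was computed, and the intervals cover counting error only. The labeled tissue was borne out by its markers, with *Alb* at 31534 FPKM in the S1a/Ctrl pool and 31035 FPKM in the S1a/ETP pool. In bulk liver RNA, a change in the number of cells of a type cannot be told apart from a change in RNA per cell.

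Tubulin mRNA as a whole was 2.21-fold [2.16, 2.27] higher in the S1a/ETP pool, at a summed level of 301 FPKM against 666 FPKM. The members took 10519 reads of the S1a/Ctrl library and 17073 of the shallower S1a/ETP library. Of the 10 members, all of which passed a minimum mean of 0.1 FPKM with both libraries above it, 9 had the higher value in S1a/ETP. At least 2-fold higher were 3, *Tubb2a*, *Tuba1c* and *Tuba8*, against 6.42% of the 16042 genes that passed the same minimum. None was at least 2-fold lower, against 6.25% of all genes. The counting interval lay above 0 for 8 members, against 22.4% of all genes, and below 0 for none, against 17.5%. Genes with more reads have narrower intervals, and these shares of all genes were not matched to the levels of the members. The median log2 ratio was 0.79 over the members and 0.03 over all genes.

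**Figure D1:**
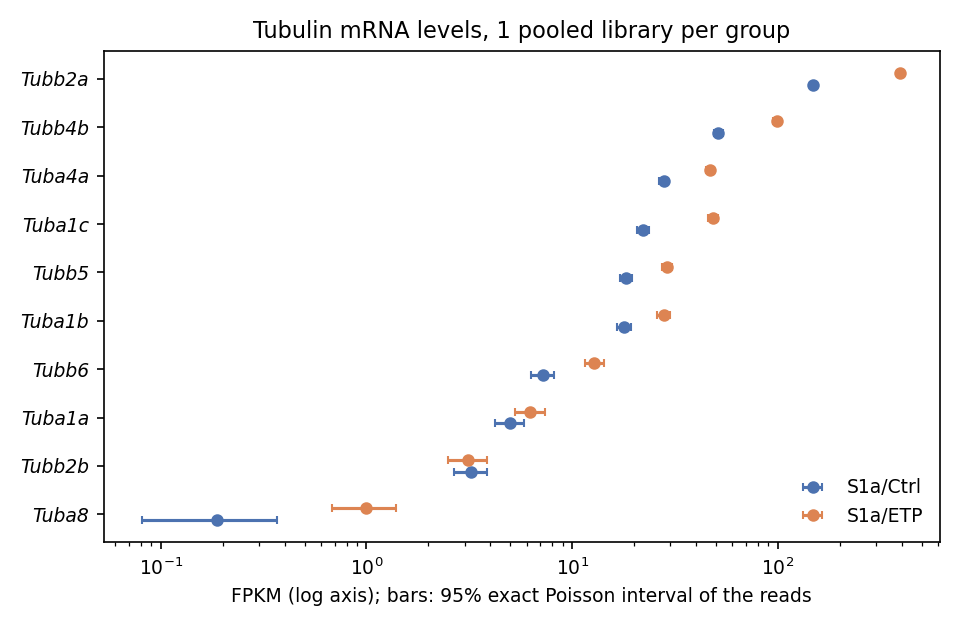
FPKM of the 10 members (log axis) in S1a/Ctrl (blue) and S1a/ETP (orange), 1 point per pooled library with its 95% exact Poisson interval, ordered by the S1a/Ctrl level. The intervals of the libraries are apart for 8 members and overlap for *Tuba1a* and *Tubb2b*.

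*Tubb2a*, a beta tubulin of wide expression that is also abundant in neurons, was the most abundant member in both pools and carried most of the difference. It was at 148 FPKM [143, 152] in S1a/Ctrl, on 4504 reads, and at 393 FPKM [384, 401] in S1a/ETP, on 9040 reads, the level intervals being exact Poisson. The libraries were far apart relative to counting error, with a log2 ratio of 1.41 [1.36, 1.46], or 2.66-fold. Its difference of 245 FPKM was 79.4% of that of the summed beta tubulins. Of 689 genes that averaged 100 FPKM or more, 7 had a log2 ratio as high, itself included. The gene lies on chromosome 13 on the minus strand, from 34074301 to 34078008 in the mm10 coordinates of the table.

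*Tubb2b*, its neighbor from 34127008 to 34130354 on the same strand, is known from migrating neurons of the developing brain. It was at 3.22 FPKM [2.67, 3.85] in S1a/Ctrl, on 119 reads, and at 3.11 FPKM [2.49, 3.84] in S1a/ETP, on 87 reads, so that the pools overlapped. The log2 ratio of −0.05 [−0.45, 0.35] was the lowest of the members, and the interval did not extend to a 1.5-fold difference in either direction. FPKM of *Tubb2a* exceeded that of *Tubb2b* by 45.9 times [38.3, 55.1] in S1a/Ctrl and by 126 times [102, 156] in S1a/ETP, with intervals by the delta method. Summed over both genes, the fold was 2.62 [2.53, 2.72]. This sum still depends on how shared reads were assigned, since the genes differ in length and both share windows with the pseudogene *Tubb2a-ps2*.

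*Tubb4b*, a widely expressed beta tubulin that is also a main component of cilia and flagella, was the next most abundant. Its level was 51.4 FPKM [48.9, 54.0] against 98.6 FPKM [94.6, 103] in the S1a/ETP pool, just under 2-fold (log2 ratio 0.94 [0.85, 1.03]). *Tubb5*, the class I beta tubulin present in nearly all cells and prominent in dividing ones, had 18.3 FPKM [17.2, 19.6] against 28.9 FPKM [27.2, 30.6] (log2 ratio 0.65 [0.53, 0.78]). The separation of the pools was thus smaller for *Tubb5* than for *Tubb2a* and *Tubb4b*, whose intervals do not overlap with it. *Tubb6*, a class V beta tubulin that is known to be induced in injured and regenerating muscle, had 7.19 FPKM [6.31, 8.15] on 243 reads and 12.8 FPKM [11.5, 14.3] on 328 reads. Its log2 ratio of 0.83 [0.59, 1.07] lay between those of *Tubb5* and *Tubb4b*, and its interval overlapped with both.

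Among the alpha tubulins, *Tuba1c*, a widely expressed isotype, had the largest log2 ratio after the sparse *Tuba8*. With 22.2 FPKM [20.7, 23.7] on 843 reads in the S1a/Ctrl pool and 48.4 FPKM [45.9, 51.0] on 1391 reads in the S1a/ETP pool, the log2 ratio was 1.12, with an upper bound of 1.25 and a lower bound at 2-fold. It lies on chromosome 15 from 99029891 to 99038105, near *Tuba1b* and *Tuba1a*, which are transcribed from the opposite strand. *Tuba1b*, an alpha tubulin of most cell types, had 17.9 FPKM [16.5, 19.4] against 27.9 FPKM [25.9, 30.0] (log2 ratio 0.63 [0.48, 0.79]), and its log2 interval did not overlap with that of *Tuba1c*, a near-copy whose reads may be exchanged with it. *Tuba1a*, an isotype of growing neurons, had 4.98 FPKM [4.24, 5.83] on 158 reads and 6.26 FPKM [5.30, 7.35] on 150 reads. Its log2 ratio of 0.32 [−0.00, 0.65] reached down to 0, so that no difference was detectable at this depth. The sum of the 3 *Tuba1* genes was 1.83-fold [1.72, 1.95] higher in S1a/ETP. It too depends on how shared reads were assigned, since all 3 share windows with genes outside the sum, among them the pseudogene *Gm17383*. Counts were low for *Gm17383* (1 against 8) and for *Gm14150* (5 against 8), a pseudogene that shares windows with *Tuba1b*.

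*Tuba4a*, an alpha tubulin abundant in brain, muscle and platelets, was the most abundant alpha member of S1a/Ctrl. It had 27.9 FPKM [26.6, 29.4] there and 46.8 FPKM [44.8, 49.0] in the S1a/ETP pool (log2 ratio 0.74 [0.65, 0.84]). Whether the counting used strand is not stated, so reads of *Tuba4a* and of the overlapping kinase gene *Stk16* could be exchanged. *Stk16* had 24.6 against 28.6 FPKM (log2 ratio 0.22 [0.10, 0.33]), and this interval lay below that of *Tuba4a*. *Tuba8*, an isotype of testis and striated muscle, was the least abundant member, at 0.187 FPKM on 8 reads in the S1a/Ctrl pool, an interval of 0.0807 to 0.368, and 0.989 FPKM on 32 reads in the S1a/ETP pool, an interval of 0.677 to 1.40. Its log2 ratio was 1.93 [1.05, 2.73], the highest of the members and the least precise, and 2.40 without the pseudocount. With a pseudocount of 1 FPKM it was 0.75 and no longer past 2-fold.

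In the mm10 coordinates and identifiers of the table, *Tubb2a* (ENSMUSG00000058672) and *Tubb2b* (ENSMUSG00000045136) are the pair on chromosome 13. *Tuba1b* (ENSMUSG00000023004) lies on chromosome 15 from 98931425 to 98934565 and *Tuba1a* (ENSMUSG00000072235) from 98949841 to 98953551, both on the minus strand, with *Tuba1c* (ENSMUSG00000043091) beside them. *Tuba4a* (ENSMUSG00000026202) is on chromosome 1 from 75214228 to 75219865, and *Tuba8* (ENSMUSG00000030137) on chromosome 6 from 121210734 to 121226854. *Tubb4b* (ENSMUSG00000036752) is on chromosome 2 from 25222160 to 25224702, *Tubb5* (ENSMUSG00000001525) on chromosome 17 from 35833921 to 35838306, and *Tubb6* (ENSMUSG00000001473) on chromosome 18 from 67390717 to 67402748. *Tubb4b* overlaps *Fam166a*, which had 0 reads in the S1a/Ctrl pool and 1 in the S1a/ETP pool, and *Tuba8* overlaps *Gm15856*, which had none in either. The 2 genes described as tubulin pseudogenes had few reads in S1a/Ctrl and S1a/ETP, 3 and 2 for *Tubb4b-ps1* and 4 and 1 for RP23-8J15.8. *Gm16165*, a pseudogene that shares windows with *Tubb4b*, had 1 and 0.

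**Figure D2:**
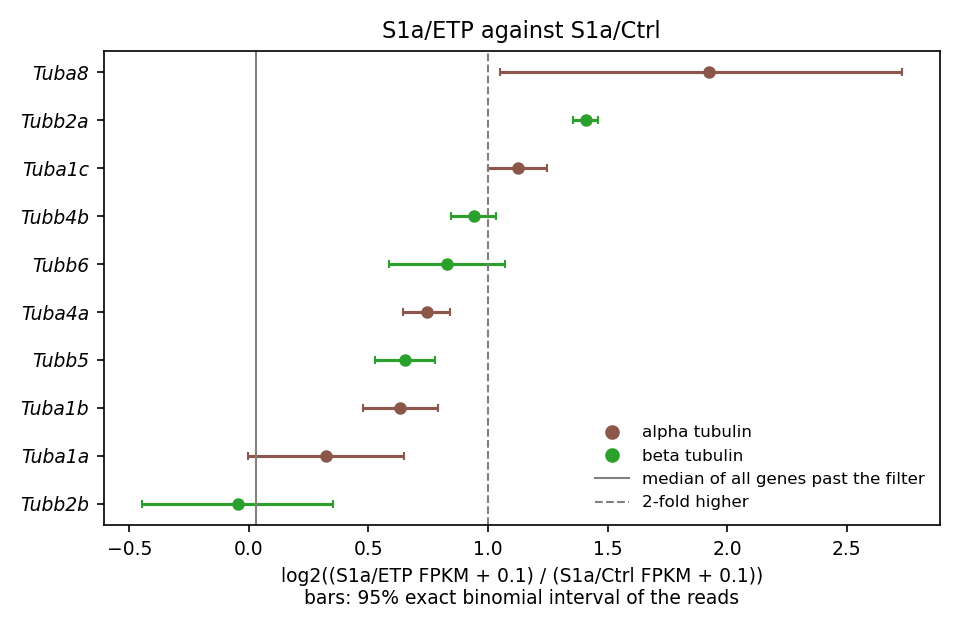
Log2 ratio of S1a/ETP over S1a/Ctrl for each member with its 95% exact binomial interval, alpha tubulins in brown and beta tubulins in green; the solid line is the median of all genes past the minimum, 0.03, and the dashed line marks 2-fold higher. *Tuba8*, *Tubb2a* and *Tuba1c* lie right of the dashed line, and the intervals of *Tuba1a* and *Tubb2b* reach 0.

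The order of levels was nearly the same in the 2 pools. In S1a/Ctrl it ran from *Tubb2a* through *Tubb4b*, *Tuba4a*, *Tuba1c*, *Tubb5*, *Tuba1b*, *Tubb6*, *Tuba1a* and *Tubb2b* to *Tuba8*. The neighbors *Tubb5* and *Tuba1b* did not differ beyond counting error in either pool. In S1a/ETP *Tuba1c* stood before *Tuba4a*, but their intervals of 45.9 to 51.0 and 44.8 to 49.0 FPKM overlapped. All other neighbors had intervals that were apart. The remaining genes of the families were close to silent, as *Tubb1*, the beta tubulin of platelets, and *Tubb3*, that of neurons, each had 1 read in the S1a/Ctrl pool and 2 in the S1a/ETP pool, and *Tubb4a*, also neuronal, had 3 and 2. No read was counted in either library for *Tuba3a*, *Tuba3b* and *Tubal3*, where a count of 0 allows up to 3 reads as a one-sided 95% limit.

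The widely expressed isotypes, for which *Tuba1b*, *Tuba1c*, *Tuba4a*, *Tubb2a*, *Tubb4b* and *Tubb5* were listed, had the larger difference. Together they made 286 FPKM against 643 FPKM in the S1a/ETP pool, 2.25-fold [2.20, 2.31]. All 6 had an interval above 0, against 22.4% of all genes, and 2 were at least 2-fold higher, against 6.42%. The lowest was *Tuba1b*. The isotypes linked to injury or growth, *Tuba1a*, *Tubb2b* and *Tubb6*, summed to 15.4 and 22.2 FPKM, 1.44-fold [1.28, 1.63]. Of these 3, *Tubb6* had an interval above 0 and none reached 2-fold. Without *Tubb2a* the widely expressed isotypes were 1.82-fold [1.76, 1.89] higher, still with an interval above that of the injury- or growth-linked isotypes. This separation came with *Tuba1a* and *Tubb2b*, whose near-copies are in the other list and may exchange reads with them. *Tubb6*, which shared no window with another gene, was 1.78-fold higher (log2 ratio 0.83 [0.59, 1.07]), close to the widely expressed isotypes without *Tubb2a*. Whether the lists differ apart from read assignment was not tested. *Tuba8* was in neither list.

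Summed beta tubulin differed more between the pools than summed alpha tubulin. The alpha members summed to 73.2 FPKM against 130 FPKM in the S1a/ETP pool, 1.78-fold [1.70, 1.87]. The beta members summed to 228 and 536 FPKM, 2.35-fold [2.29, 2.42], and the intervals, by the delta method, were apart. Summed beta FPKM was thus 3.11 times [2.98, 3.25] summed alpha FPKM in S1a/Ctrl and 4.11 times [3.97, 4.26] in S1a/ETP. This distance came with *Tubb2a*. Without it the beta members summed to 80.1 and 143 FPKM, 1.79-fold [1.70, 1.88], and the ratio of beta to alpha was 1.09 [1.04, 1.15] in S1a/Ctrl and 1.10 [1.05, 1.15] in S1a/ETP. The ratios of beta to alpha also depend on how shared reads were assigned, which their intervals do not cover. Shared windows made up 53.4% to 73.0% of the *Tuba1* genes, which hold most of the alpha sum, and 36.9% of *Tubb2a*.

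**Figure D3:**
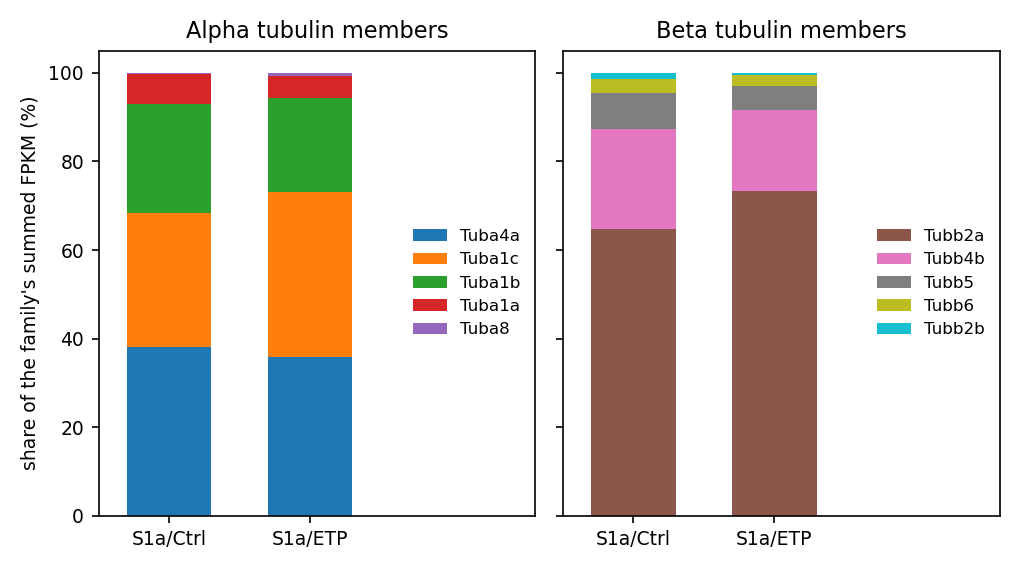
Share of each member in the summed FPKM of its family, alpha on the left and beta on the right, as stacked bars for the 2 pooled libraries. *Tubb2a* takes 64.8% of the beta bar in S1a/Ctrl and 73.2% in S1a/ETP, and *Tuba1c* takes 30.3% and 37.1% of the alpha bar.

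Shares of each family's sum were higher in S1a/ETP for the isotypes with the largest ratios, which follows from those ratios. *Tubb2a* made up 64.8% [63.8, 65.9] of summed beta FPKM in the S1a/Ctrl pool and 73.2% [72.5, 74.0] in the S1a/ETP pool. The share of *Tubb4b* was 22.5% [21.6, 23.5] and 18.4% [17.7, 19.1], and that of *Tubb5* 8.05% [7.54, 8.56] and 5.39% [5.08, 5.71], so both had a higher level but a smaller share in S1a/ETP. *Tubb6* went from 3.15% to 2.40% and *Tubb2b* from 1.41% to 0.581%. In the alpha family *Tuba1c* took 30.3% [28.6, 31.9] in S1a/Ctrl and 37.1% [35.6, 38.6] in S1a/ETP and passed *Tuba4a*, at 38.2% [36.5, 39.8] and 35.9% [34.5, 37.3], whose intervals overlap. *Tuba1b* was at 24.5% and 21.4%, *Tuba1a* at 6.81% and 4.80%, and *Tuba8* at 0.255% and 0.759%.

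The promoters of *Tubb2a* and *Tubb4b*, the most abundant members, are shown with the motifs found in them. Each window holds 250 bases before and 50 after the gene start (RefSeq, GRCm38.p6). Windows of 8 members were searched, and *Tubb2b* and *Tubb6* were not among them. Capitals mark the TATA box (searched as TATAAA), the CAAT box (searched as CCAAT) and the GC box (searched as GGGCGG) on either strand, none of which overlapped another:
Tubb2a, chr13:34077959-34078258, minus strand: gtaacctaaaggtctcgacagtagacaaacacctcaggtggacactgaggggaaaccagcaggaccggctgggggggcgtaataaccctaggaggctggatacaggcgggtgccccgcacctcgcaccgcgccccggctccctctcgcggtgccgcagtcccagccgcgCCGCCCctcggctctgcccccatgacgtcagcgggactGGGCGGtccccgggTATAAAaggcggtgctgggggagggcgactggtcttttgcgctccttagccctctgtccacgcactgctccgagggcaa
Tubb4b, chr2:25224653-25224952, minus strand: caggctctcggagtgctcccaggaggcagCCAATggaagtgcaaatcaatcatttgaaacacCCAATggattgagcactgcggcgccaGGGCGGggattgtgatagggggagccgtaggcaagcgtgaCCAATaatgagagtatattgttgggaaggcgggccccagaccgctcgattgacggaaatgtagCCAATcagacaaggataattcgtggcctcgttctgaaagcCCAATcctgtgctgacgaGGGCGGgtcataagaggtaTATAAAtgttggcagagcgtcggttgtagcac
*Tubb2a* had 1 TATA box, no CAAT box and 2 GC boxes, and *Tubb4b* had 1 TATA box, 5 CAAT boxes and 2 GC boxes. Of the 8 windows, 2 held a TATA box, 4 a CAAT box and 6 a GC box. Over 32851 promoter windows of the same length the shares were 13.6%, 37.4% and 35.7%. A match is a description of the letters in the window only.

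The genes of the tubulin folding path had ratios near or below 0 beside the higher tubulins. The CCT chaperonin folds the newly made chains, prefoldin hands them over, and cofactors A to E join the chains to the dimer. Of 14 genes of CCT and prefoldin, none was 2-fold higher or lower, against 6.42% and 6.25% of all genes. None had an interval above 0 and 4 had one below 0, against 22.4% and 17.5%. These shares, here and for the lists below, were not matched to the levels of the listed genes. The median log2 ratio was −0.03. *Cct5*, a CCT subunit, had a log2 ratio of 0.01 [−0.08, 0.10] at 59.6 FPKM in the S1a/Ctrl pool, and *Pfdn5*, a prefoldin subunit, had 83.1 against 75.5 FPKM. Of the 7 genes of the cofactors none was past 2-fold, 1 had an interval above 0 and 3 below 0, with a median of −0.21. *Tbca*, which holds beta tubulin, had 176 against 152 FPKM (log2 ratio −0.21 [−0.32, −0.10]), and *Tbcb*, which acts on alpha tubulin, had 20.5 against 17.4 FPKM (−0.23 [−0.43, −0.04]). *Tbcel*, a relative of cofactor E that destabilizes tubulin, was the exception at 15.8 and 23.8 FPKM, 0.59 [0.49, 0.69].

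Of 16 genes of tubulin modification past the minimum, 1 was 2-fold higher and 1 lower, against 6.42% and 6.25% of all genes. An interval above 0 was found for 3 and below 0 for 1, against 22.4% and 17.5%. The median log2 ratio was 0.09. *Vash1*, the vasohibin that removes the final tyrosine, had 0.160 FPKM on 8 reads in the S1a/Ctrl pool and 0.715 FPKM on 27 reads in the S1a/ETP pool (log2 ratio 1.65 [0.78, 2.43]). The vasohibin cofactor *Svbp* was at 10.6 and 11.4 FPKM, and the ligase *Ttl*, which restores tyrosine, at 1.89 and 1.78 FPKM (log2 ratio −0.08 [−0.42, 0.25]). *Ttll11*, a polyglutamylase, was lower, with 63 against 14 reads and a log2 ratio of −1.49 [−2.18, −0.79]. The deacetylases *Sirt2* and *Hdac6* were at 0.09 [−0.04, 0.22] and 0.10 [−0.11, 0.30]. *Ttc5*, which recognizes nascent tubulin in the decay of its mRNA, was at 4.04 and 4.63 FPKM, 0.19 [−0.16, 0.54].

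**Figure D4:**
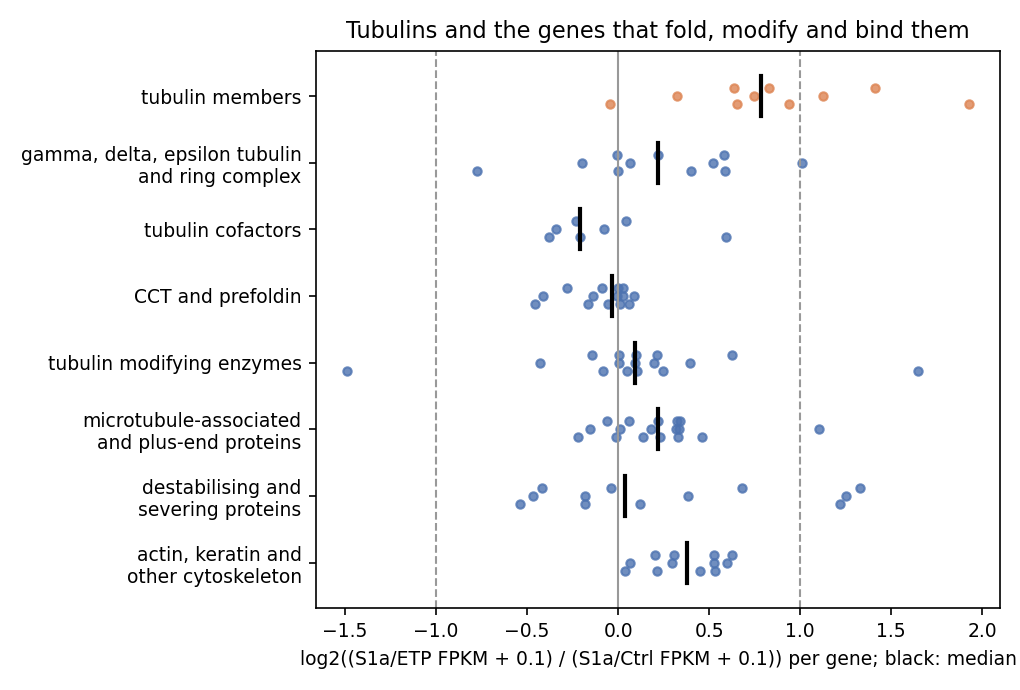
Log2 ratio of S1a/ETP over S1a/Ctrl for each gene past the minimum in the tubulin members (orange) and in lists of genes around them (blue), with the median of each list in black and dashed lines at 2-fold. The members have a median of 0.79, against −0.21 for the tubulin cofactors and −0.03 for CCT and prefoldin.

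Genes that nucleate, bind and sever microtubules held a few larger ratios among many small ones. Of 11 genes of the gamma, delta and epsilon tubulins and the ring complex that nucleates microtubules, 1 was 2-fold higher, against 6.42% of all genes. An interval above 0 was found for 6 and below 0 for 1, against 22.4% and 17.5%, and the median was 0.22. *Tubg1*, the gamma tubulin, was at 15.5 and 18.0 FPKM, 0.22 [0.04, 0.40]. *Tubd1*, the delta tubulin, was at 1.63 and 2.49 FPKM, 0.58 [0.11, 1.06], and *Tube1*, the epsilon tubulin of centrioles, had 11 and 21 reads and 1.01 [0.17, 1.79]. *Mzt2*, a small subunit of the ring complex, was lower, at 26.1 against 15.2 FPKM or 0.585-fold [0.499, 0.684].

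Of 17 microtubule-associated and plus-end proteins, 10 had an interval above 0 and none below 0, against 22.4% and 17.5% of all genes. The median was 0.22. *Clip2*, a plus-end linker, was 2.15-fold [1.63, 2.83] higher at 0.728 and 1.68 FPKM. *Mapre3* and *Map7d1*, among the abundant genes of this list, were at 0.22 [0.10, 0.33] and 0.32 [0.18, 0.47]. Of 12 destabilizing and severing proteins 3 were at least 2-fold higher, against 6.42% of all genes. An interval above 0 was found for 5 and below 0 for 2, and the median was 0.04. The 3 were *Stmn1*, the tubulin-sequestering stathmin of proliferating cells, with 58 and 104 reads and 1.22 [0.75, 1.69], *Fignl1*, a relative of the severing enzyme fidgetin that is known from DNA repair, at 1.25 [0.74, 1.77] and the mitotic kinesin *Kif18b*, with 3 and 13 reads, at 1.33 [0.39, 1.92]. The severing genes *Katna1* and *Katnal1* had an interval below 0, at −0.42 [−0.73, −0.11] and −0.54 [−0.86, −0.22], and *Spast* was at −0.04. The 12 genes of other cytoskeleton were all above 0 with a median of 0.38, and none was past 2-fold. *Actb*, cytoplasmic actin, was at 262 and 377 FPKM, 0.53 [0.49, 0.57], and the hepatocyte keratin gene *Krt8* at 253 and 313 FPKM, 0.31 [0.27, 0.35].

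Markers of cell types differed between the pools in both directions. Over all genes, 6.42% were at least 2-fold higher and 6.25% lower, and 22.4% had an interval above 0 and 17.5% below 0. Of 10 genes of dividing cells 9 were at least 2-fold higher, and they summed to 3.96 against 14.0 FPKM, with none at 0. Of 9 genes of neutrophils each was past 2-fold upward, at a sum of 6.16 against 361 FPKM, with *Camp*, *Elane*, *Mpo* and *Ngp* at 0 in S1a/Ctrl. All 6 macrophage genes had an interval above 0, at 84.3 and 114 FPKM. Of 9 stellate cell and fibroblast genes, at 137 and 156 FPKM, 5 had an interval above 0, and *Des*, which encodes desmin, had one below 0 at −0.60 [−0.96, −0.25]. All 11 skeletal muscle genes were at least 2-fold lower, at 103 and 0.635 FPKM, with 7 of them at 0 in S1a/ETP. Of 5 testis genes, 4 were at 0 in both pools. Of 7 hepatocyte genes, *Cyp2e1* was 2-fold lower, and the median was −0.27. The bile duct genes summed to 133 and 192 FPKM through *Spp1* (127 and 188 FPKM), while their median log2 ratio was −0.19 and *Epcam* had an interval below 0 at −0.65 [−1.12, −0.18]. The lymphocyte genes summed to 2.49 and 2.87 FPKM through *Nkg7* (1 and 17 reads), while their median was −0.22 and 2 of 7, *Cd79a* and *Cd3g*, were at least 2-fold lower. Endothelial genes summed to 36.0 and 36.9 FPKM, platelet genes to 4.56 and 7.34 FPKM, and nerve genes, with *Elavl4*, *Nefl*, *Snap25* and *Sox10* at 0 in both pools, had a median log2 ratio of −0.20. The part of these cell types in the tubulin ratios was not tested.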

How the data were processed

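Liver RNA of 3 mice was pooled into 1 library each for S1a/Ctrl and S1a/ETP. The authors deposited FPKM values (sequencing by Novogene), with the gene lengths used. For mm10, the submitters' processing notes list edgeR 3.16.5, HTSeq 0.6.1, STAR and StringTie 1.3.3b among other tools, with no roles. The annotation, read length and strandedness were not given in the sources used here. FPKM times length and depth gave whole reads for 100% of values above 0 (within 0.01 reads) at 19245078 and 14538808 reads, which yielded the intervals. A pseudocount of 0.1 FPKM, a minimum mean of 0.1 FPKM and the study's 2-fold size were used. The members, 11 lists of tubulin-related genes and 12 of markers were chosen with earlier results of these data known, and 1 listed gene was unmatched and 2 were matched by ID. Named were all members, other tubulin genes with at least 10 reads, and from each tubulin list up to 4 genes past 2-fold with at least 10 reads and the 2 most abundant. Other genes, named for their role, were chosen after their values were seen. Protein sequences were not used here, and coding sequences took their place. Steps were tested on simulated data. Alternatives were pseudocounts, minimums, 3 rescalings, fold sizes, and sums with other tubulin genes or of reads. The coding ends of the other alpha members are not reported here. Coding sequences are from GENCODE vM21 and were aligned with biopython 1.88. Python 3.11.15, numpy 2.4.6, pandas 2.3.3, scipy 1.17.1 and matplotlib 3.10.9 were used. The qPCR, protein and tissue measurements were not analysed here.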

Additional observations from a re-analysis of the deposited data

How the results depend on the processing

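Each alternative changed 1 choice. The number of members at least 2-fold higher, 3, was 8 at a 1.5-fold size and 0 at a 4-fold size, 2 with a pseudocount of 1 FPKM or a minimum mean of 1 FPKM, and 4 after scaling to TPM, where *Tubb4b* passed 2-fold at 1.01. No member was 2-fold lower in any of these. Scaling to TPM moved summed alpha tubulin from 0.83 to 0.90 and summed beta tubulin from 1.23 to 1.31 on the log2 scale, beyond their counting intervals, since TPM shifted all ratios by 0.07. The other rescalings shifted them by −0.03 and 0.03. The members' median stayed between 0.74 and 0.86. With a pseudocount of 1 FPKM *Tuba8* fell from 1.93 to 0.75. The ratio of *Tubb2b* lay between −0.07 and 0.02, so its direction is not determined. The direction of the CCT and prefoldin median, between −0.06 and 0.04, and of the median of destabilizing and severing genes, between −0.00 and 0.17, was not determined either. No paired analysis was possible because each group has 1 library, and no library could be left out. Counting error limits *Tuba8*, *Tubb2b* and *Tuba1a*, and *Tubb2a* least. A pseudocount and a minimum were not applied to the sums.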
